A study of Homo sapiens with 8 samples.

Results

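MDM2, MDM4, PPM1D, CDKN1A, GDF15, SESN1, TP53I3 and RRM2B are 3 negative regulators of p53 and 5 further genes that p53 is known to switch on. These 8 genes were picked by name from the 56303 genes of a table of read counts. The counts came from the neuroblastoma line SK-N-BE(2), an established human cell line. One arm carried a control short hairpin RNA (sh-NC). The other arm carried a hairpin against METTL14 (shMETTL14), delivered by lentivirus and kept under puromycin selection in the same way as the control. Each arm had 2 cultures, and each culture gave 1 input library of fragmented poly(A) RNA and 1 IP library of the fragments pulled down with an antibody against N6-methyladenosine (m6A), so that 8 libraries were measured. METTL14 is the partner of METTL3 in the enzyme complex that writes m6A on messenger RNA, and the question asked of these genes was whether their RNA level, or their share of the pulled-down RNA, differed when METTL14 was reduced. The labels do not say whether the shMETTL14 cultures carried 1 hairpin or several, nor how separate the cultures of an arm were, so the p-values measure the spread between these libraries, which may be technical.

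The p53 protein is a transcription factor that stress and DNA damage stabilize. It binds a response element made of a pair of short half-sites and raises genes that stop the cell cycle, repair DNA or kill the cell. MDM2, which marks p53 for destruction, is itself a p53 target, which closes a negative feedback loop, and MDM4 binds p53 and blocks its activity. Several of these genes are also reached by other stress factors and by p53 relatives.

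Promoter sequences of RefSeq (GRCh38.p14) running from 250 bases before to 50 bases after a start site were searched on both strands for the consensus p53 response element. The search took 2 abutting half-sites of 10 bases each, kept the C and G of the central CNNG of each half-site fixed and allowed at most 3 mismatches over the 20 bases. This rule was settled after the sequences had been seen. Windows of 7 of the 8 genes were searched, and those of MDM2, SESN1 and GDF15 held a match. Among all promoter windows of the RefSeq table, 1.12% of 35116 held one, and by gene 1.37% of 27305. These shares cannot serve as a test of the matches, since the rule followed the sequences and the genes were picked as p53 genes. For each of MDM2, SESN1 and GDF15, 1 window that held a match is shown. The match is in capitals and the rest in lower case, each sequence is written 5′ to 3′ on the strand of its gene, and positions are counted from the start site.

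MDM2, chr12:68808767-68809066, plus strand: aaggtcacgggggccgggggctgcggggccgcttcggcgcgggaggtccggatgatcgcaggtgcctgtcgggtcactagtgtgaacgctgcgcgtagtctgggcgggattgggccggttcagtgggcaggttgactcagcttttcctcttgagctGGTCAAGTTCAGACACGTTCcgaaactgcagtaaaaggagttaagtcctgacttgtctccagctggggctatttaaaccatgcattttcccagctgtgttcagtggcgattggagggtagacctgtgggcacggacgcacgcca
SESN1, chr6:109008939-109009238, minus strand: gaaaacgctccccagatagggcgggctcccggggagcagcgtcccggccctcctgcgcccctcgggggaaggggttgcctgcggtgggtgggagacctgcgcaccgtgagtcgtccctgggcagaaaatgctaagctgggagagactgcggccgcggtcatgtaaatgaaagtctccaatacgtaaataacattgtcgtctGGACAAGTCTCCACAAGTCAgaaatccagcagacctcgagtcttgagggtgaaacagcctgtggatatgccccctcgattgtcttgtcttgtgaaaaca
GDF15, chr19:18385908-18386207, plus strand: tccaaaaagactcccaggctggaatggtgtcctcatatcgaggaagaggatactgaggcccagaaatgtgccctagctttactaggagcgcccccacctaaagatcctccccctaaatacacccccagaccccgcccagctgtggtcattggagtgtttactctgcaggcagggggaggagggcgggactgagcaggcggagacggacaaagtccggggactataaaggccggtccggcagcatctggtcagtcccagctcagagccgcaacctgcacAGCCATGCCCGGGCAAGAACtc

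In MDM2 the matched letters began 94 bases before the start site, with 2 mismatches. This start site, at position 68809017 of chromosome 12, was the first base of 1 of the exons listed for MDM2 in the count table, and the windows of the start sites upstream of it, the first of them at 68808172, held no match. In SESN1 the match began 49 bases before the start site at position 109008988 of chromosome 6 and had 3 mismatches. The windows of the SESN1 start sites at 109094846 and 109009552 held no match. In GDF15 the match began 28 bases after the start site at position 18386158 of chromosome 19, also with 3 mismatches. No exon listed for GDF15 in the count table began at that start site. The single windows of MDM4, PPM1D, CDKN1A and TP53I3 held no match, which says only that these letters are not in those 300-base windows; the elements known for CDKN1A lie further upstream. A match is a description of the letters and does not show that a factor binds there.

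The libraries held between 32027379 and 47205265 counts. METTL14 stood at 49.5 and 48.8 CPM (counts relative to the TMM-adjusted total of the library) in the control inputs, against 13.7 and 14.7 CPM after knockdown. It was lower by 1.79 on the log2 scale (SE 0.07, edgeR quasi-likelihood test, adjusted p = 1.279e-15), as the labels of the arms require. All 9 markers of noradrenergic neuroblastoma that were looked up were measured, and their summed level was 5864 to 6093 CPM in the sh-NC inputs and 6201 to 6281 CPM in the shMETTL14 inputs. Most of this sum was MYCN, which was not called, at 4452 and 4224 CPM in sh-NC and 4310 and 4276 CPM in shMETTL14. Of the 9 markers, 6 were higher in shMETTL14, among them TH and DBH, enzymes of catecholamine synthesis. None was lower, where 11.7% of all genes were called higher and 12.3% lower. Of 5 fibroblast markers, 3 were higher and 1 was lower, with sums of 302.0 to 303.7 CPM against 325 to 327 CPM. The 4 Schwann cell markers summed to 4.86 to 5.88 CPM in the inputs and the 3 immune markers to 0.909 to 1.303 CPM, with LYZ at 0 in all inputs. The part that these shifts have in the values below was not tested.

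Per kilobase of exon, the scale on which levels of different genes can be compared, TP53I3 was the most abundant of the 8 messages in the sh-NC inputs, at 12.5 ± 0.491 CPM per kb (SD, n = 2). TP53I3 encodes a quinone oxidoreductase known as PIG3. MDM2 followed at 4.56 ± 0.0335 CPM per kb, then MDM4 at 3.81 ± 0.0669 and PPM1D at 3.79 ± 0.153 CPM per kb, and the libraries of MDM4 and PPM1D overlapped. RRM2B, CDKN1A and SESN1 lay between 1.85 and 2.44 CPM per kb. GDF15 was the lowest, at 0.347 ± 0.0400 CPM per kb, and rested on 28 and 24 counts. In the shMETTL14 inputs TP53I3 stood at 24.2 ± 0.534 CPM per kb and again came first, and GDF15 at 0.171 ± 0.05002 CPM per kb came last. MDM2, at 3.21 ± 0.0969 CPM per kb, had moved from the second to the fourth place, with libraries overlapping those of MDM4 at 3.28 ± 0.0636, and SESN1 at 2.28 ± 0.0460 CPM per kb stood above RRM2B at 2.12 ± 0.0241 and CDKN1A at 1.99 ± 0.0241. These levels divide by the full listed exon length, which for MDM2 includes a last exon of 11413 of its 13269 bases.

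**Figure D1:**
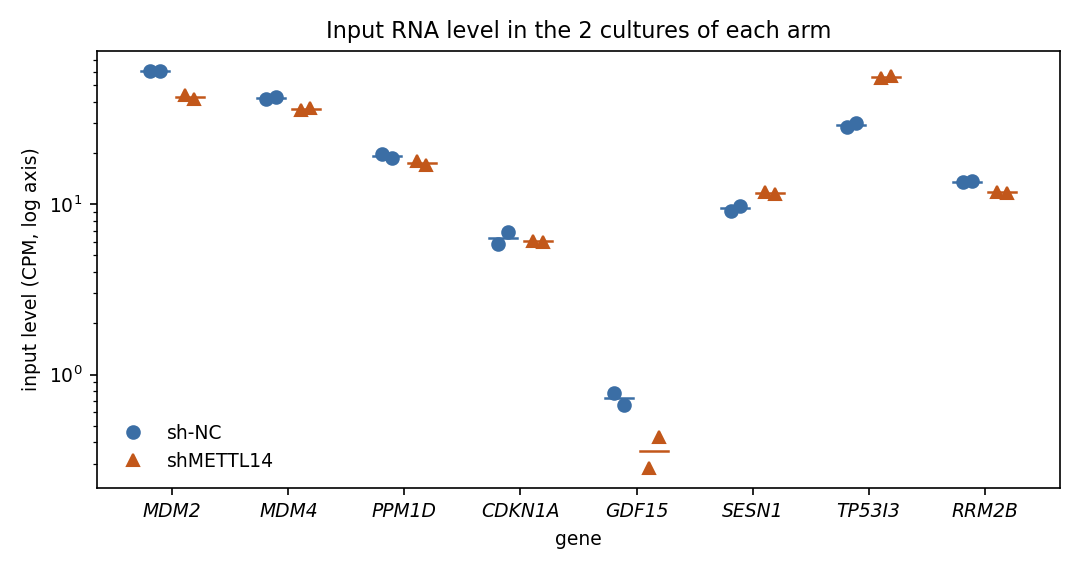
Input RNA level of the 8 genes in CPM on a log axis; each point is 1 culture and each bar the mean of the 2 cultures of an arm. The shMETTL14 points of MDM2 and MDM4 lie below the sh-NC points, those of TP53I3 and SESN1 lie above them, and those of CDKN1A fall within the sh-NC range.

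Of the 3 negative regulators, MDM2 and MDM4 were lower in the shMETTL14 inputs, and PPM1D did not pass the test. MDM2 (chromosome 12, 68808176 to 68850686, GRCh38, plus strand), the ubiquitin ligase of p53, stood at 60.8 and 60.2 CPM in sh-NC and at 43.5 and 41.6 CPM in shMETTL14. Both shMETTL14 cultures were well below both controls. The difference was -0.50 on the log2 scale (SE 0.05, 95% interval -0.61 to -0.39, adjusted p = 7.245e-08), and MDM2 was called under each alternative analysis that was run. A change in all cells and a change in some of them cannot be told apart in such bulk libraries.

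MDM4 (chromosome 1, 204516379 to 204558120, plus strand), the relative of MDM2 that holds p53 inactive without marking it for destruction, stood at 41.5 and 42.5 CPM in sh-NC. It stood at 35.6 and 36.6 CPM in shMETTL14, so that the arms did not overlap, at a smaller distance than for MDM2. The log2 difference was -0.21 (SE 0.06, adjusted p = 0.00771). The call was lost without the first shMETTL14 culture (adjusted p = 0.125), without the second (0.105) and when every gene with at least 1 read was tested (0.0805). PPM1D (chromosome 17, 60600183 to 60666280, plus strand) encodes the phosphatase WIP1, which removes activating phosphates from p53 and from the kinases above it. PPM1D was at 19.7 and 18.6 CPM in sh-NC and at 17.9 and 17.0 CPM in shMETTL14, a log2 difference of -0.12 with a 95% interval of -0.29 to 0.04 (adjusted p = 0.294).

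The 5 target genes did not move together: TP53I3 and SESN1 were higher in shMETTL14, and CDKN1A, RRM2B and GDF15 did not pass the test. TP53I3 (chromosome 2, 24077433 to 24085861, minus strand), linked to reactive oxygen species in p53-driven cell death, stood at 28.2 and 29.8 CPM in sh-NC, and with shMETTL14 it reached 55.1 and 56.8 CPM. The arms were far apart against the spread within each. The difference was 1.94-fold, or 0.95 on the log2 scale (SE 0.06, 95% interval 0.84 to 1.07, adjusted p = 7.563e-12), at the 98.1 percentile of all genes tested, and the call held in each alternative run. TP53I3 shares 80 bases of exon with FAM228B on the other strand, which also rose (0.44), and with all FAM228B counts taken away the TP53I3 difference was 1.11.

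SESN1 (chromosome 6, 108986437 to 109094819, minus strand), a sestrin that restrains mTORC1 when amino acids are short, stood at 9.15 and 9.76 CPM in sh-NC and at 11.8 and 11.5 CPM in shMETTL14. Both shMETTL14 cultures lay above both controls. A gene on the other strand shares 363 of its 644 exon bases with SESN1. The alternative run that removed overlapping genes took away all its counts, including any outside the shared bases. With no counts removed, the SESN1 difference was 0.31 on the log2 scale (SE 0.10, adjusted p = 0.0267). The call was lost with DESeq2 (adjusted p = 0.105), with every gene of at least 1 read tested (0.0974), with the counts of an overlapping gene on the other strand taken away (0.0948), without the first sh-NC culture (0.157) and without either shMETTL14 culture (0.168 and 0.159).

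CDKN1A (chromosome 6, 36676460 to 36687339, plus strand), which encodes the cyclin-dependent kinase inhibitor p21 and is the best known p53 target, stood at 5.85 and 6.85 CPM in sh-NC and at 6.11 and 6.01 CPM in shMETTL14. The shMETTL14 values fell between the controls. The log2 difference was -0.06 with a 95% interval of -0.33 to 0.21 (adjusted p = 0.804). RRM2B, the small subunit of ribonucleotide reductase that supplies nucleotides for repair outside S phase, stood at 13.5 and 13.7 CPM in sh-NC and at 11.9 and 11.7 CPM in shMETTL14. The arms of RRM2B did not overlap, and the log2 difference of -0.20 (95% interval -0.39 to -0.01) did not pass the test over all genes (adjusted p = 0.128).

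GDF15 (chromosome 19, 18374731 to 18389176, plus strand), a secreted factor of the TGF-beta family that rises with many kinds of stress, was counted 28 and 24 times in sh-NC input RNA, and only 12 and 18 times with shMETTL14. Its CPM values of 0.783 and 0.665 lay above 0.283 and 0.431, but they rest on few reads. The log2 difference was -1.01 with a wide 95% interval of -1.94 to -0.08 (adjusted p = 0.113). It passed in one alternative, where only genes with at least 10 counts in every input library were tested (adjusted p = 0.0499).

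**Figure D2:**
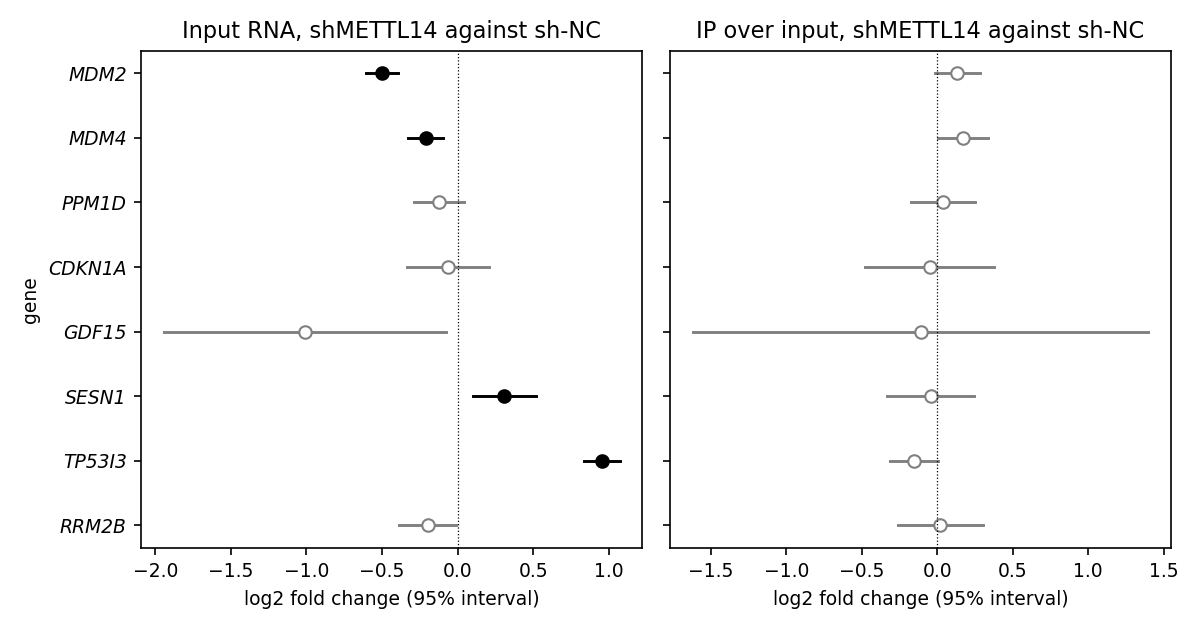
Log2 fold change of input RNA (left) and of IP over input (right), shMETTL14 against sh-NC, with 95% intervals from the edgeR fits; filled black points passed an adjusted p of 0.05 and open gray points did not. On the left TP53I3 and SESN1 lie above 0 and MDM2 and MDM4 below it, and on the right none of the 8 genes passed.

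Thus 2 of the 8 genes were higher and 2 were lower in input RNA. Among all 22245 genes tested, 11.7% were called higher and 12.3% lower. The median log2 difference of the 8 genes was -0.16, against 0.002 over all genes tested. With 2 cultures per arm an exact permutation test over the cultures could not go below a two-sided p of 0.333, so these calls rest on the spread that edgeR shares between genes.

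Of the p53 relatives, TP73 was lower and TP63 was close to 0. TP73 stood at 5.26 and 5.18 CPM against 3.70 and 3.69 CPM, a log2 difference of -0.49 (SE 0.15, adjusted p = 0.0154). TP73-AS1 on the other strand shares 601 exon bases with TP73 and had 2023 to 2286 counts against 154 to 188 for TP73 in the inputs, so that the TP73 value is uncertain, and TP73 was not called with DESeq2 (0.0804), with every gene of at least 1 read tested (0.0709), without the first sh-NC culture (0.0768) or without either shMETTL14 culture (0.0942 and 0.131). TP63 had 0, 0, 0 and 2 counts in the 4 inputs and was not tested.

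The wider pathway had calls in both directions. Of 33 other p53 target genes 31 were tested, and 7 were higher, 9 were lower and 15 were not called in shMETTL14, with a median log2 difference of -0.08, where 11.7% of all genes were higher and 12.3% lower. SESN2, the relative of SESN1, rose from 11.0 and 12.8 CPM to 19.2 and 19.3 CPM (log2 0.70, SE 0.09, adjusted p = 1.824e-06). BBC3, which encodes the cell death protein PUMA, rose from 6.01 and 5.49 CPM to 9.46 and 8.09 CPM (log2 0.62, SE 0.13). TP53INP1, a stress protein of autophagy and cell death, and TIGAR, which lowers glycolysis, were higher by 0.54 and 0.45 on the log2 scale.

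Among the other targets that fell, ZMAT3, an RNA-binding protein that acts on splicing, had the lowest value. ZMAT3 went from 15.3 and 15.03 CPM to 7.03 and 8.11 CPM (log2 -0.996, SE 0.10, adjusted p = 6.781e-08). CCNG1, cyclin G1, went from 25.2 and 26.8 CPM to 15.8 and 15.7 CPM (log2 -0.72, SE 0.08). CMBL, a hydrolase, and APAF1, the core of the apoptosome, were lower by -0.49 and -0.36 on the log2 scale.

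Of 24 genes that regulate p53, 3 were higher, 5 were lower and 16 were not called, with a median of -0.04. The share called higher is near the 11.7% of all genes, and 12.3% of all genes were lower. RCHY1, a ubiquitin ligase of p53 also called PIRH2, was higher by 0.31 on the log2 scale, DAXX by 0.17 and HUWE1 by 0.11. TRIM24, another ubiquitin ligase of p53, was lower by -0.39, the kinase HIPK2 by -0.35, and the DNA damage kinases PRKDC and ATR by -0.34 and -0.27. Of 9 paralogs and partners of the 8 genes, 3 were higher (SESN2, PPM1G and PPM1B) and 2 were lower. The lower ones were RRM2, the S-phase counterpart of RRM2B, at 244.0 and 243.6 CPM against 150.2 and 152.9 CPM (log2 -0.68, SE 0.04), and SESN3, at 88.0 and 80.5 CPM against 56.3 and 54.6 CPM (log2 -0.60, SE 0.05). The 3 sestrins therefore did not share a direction, since SESN1 and SESN2 were higher and SESN3 was lower.

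**Figure D3:**
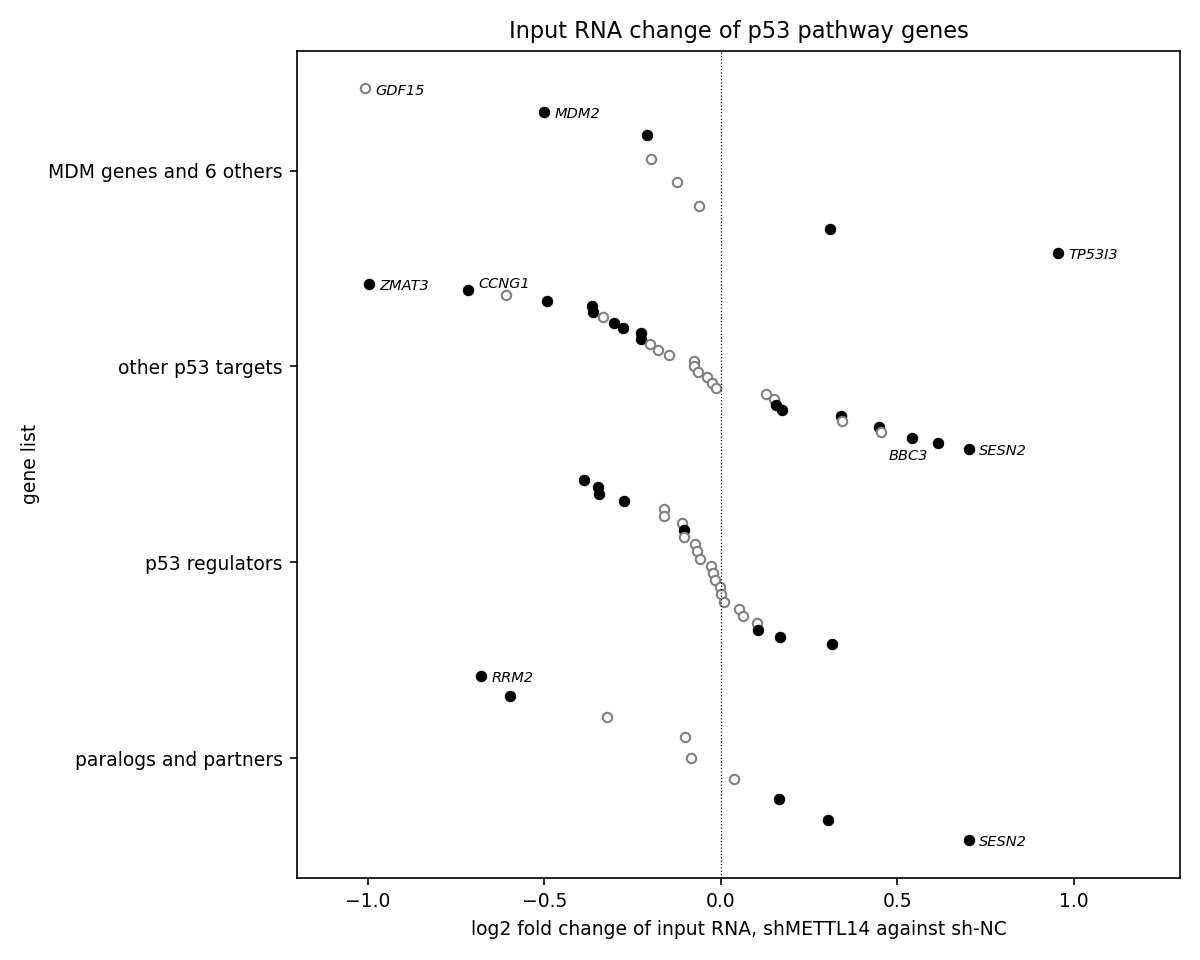
Log2 fold change of input RNA, shMETTL14 against sh-NC, for the 8 genes, 31 tested other p53 targets, 24 p53 regulators and 9 paralogs and partners; each point is a gene, filled black where the adjusted p was under 0.05 and open gray elsewhere, and the height within a list only orders the genes. Each list has filled points on both sides of 0, from ZMAT3 at -0.996 to TP53I3 at 0.95.

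IP over input, the ratio of a gene's CPM in the IP to that in the input of the same culture, says whether a gene holds more or less of the pulled-down RNA than of the input RNA. It is relative to the other genes and gives no share of methylated molecules. In sh-NC, PPM1D and TP53I3 were above 1, CDKN1A and RRM2B were below 1, and MDM2, MDM4, SESN1 and GDF15 were not called. Among all 22953 genes tested 29.1% were called above and 29.8% below, so 2 of 8 in each direction is near the background.

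PPM1D had the highest ratio of the 8 genes, at 1.37 and 1.41 in sh-NC, and at 1.43 in both shMETTL14 cultures (log2 0.48, SE 0.07, adjusted p = 2.662e-07 in sh-NC). TP53I3 had 1.36 and 1.21 in sh-NC (log2 0.36, SE 0.06, adjusted p = 7.259e-07) and 1.16 and 1.15 in shMETTL14. CDKN1A had the lowest ratio of the genes called, at 0.730 and 0.533 in sh-NC (log2 -0.67, SE 0.15, adjusted p = 1.033e-04) and 0.632 and 0.584 in shMETTL14. The sh-NC cultures of CDKN1A were far apart, and its call was lost without the second one (adjusted p = 0.0658).

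RRM2B had ratios of 0.806 and 0.765 in sh-NC, against 0.796 and 0.800 in shMETTL14 (log2 -0.35, SE 0.10, adjusted p = 0.00199 in sh-NC). The RRM2B call in sh-NC was lost without the second sh-NC culture (0.0627), and that in shMETTL14 without the first or the second shMETTL14 culture (0.0735 and 0.0687). SESN1 had 1.25 and 1.03 in sh-NC, against 1.12 and 1.10 in shMETTL14, and was called in neither arm. GDF15, on 5 to 20 IP counts, had 0.561 and 0.889 in sh-NC, against 0.573 and 0.685 in shMETTL14, and was called in neither arm.

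In shMETTL14 the genes called above 1 were MDM2, MDM4, PPM1D and TP53I3 and those below 1 were CDKN1A and RRM2B, that is 4 and 2 of 8, where 28.9% of all genes were above and 29.1% below. MDM2 had ratios of 1.00 and 1.04 in sh-NC (log2 0.03) and 1.11 and 1.13 in shMETTL14 (log2 0.16, SE 0.05, adjusted p = 0.00991). MDM4 had 1.09 and 1.03 in sh-NC (log2 0.08) and 1.15 and 1.23 in shMETTL14 (log2 0.25, SE 0.06, adjusted p = 2.769e-04). The shMETTL14 call of MDM2 was lost without the first (adjusted p = 0.0792) or the second shMETTL14 culture (0.129), and that of MDM4 without the second (0.0635). Both sit close to 1, where the scaling matters. With library size alone the median of all genes moved to -0.14 in sh-NC and -0.13 in shMETTL14, the sh-NC values became -0.10 for MDM2 and -0.05 for MDM4, and the shMETTL14 calls of MDM2 (adjusted p = 0.571), MDM4 (0.0659) and TP53I3 (0.172) were lost.

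Within the last exon of MDM2 lay a stretch with a higher ratio than the whole gene. Its last listed exon, chr12:68839274-68850686, wholly contains a gene of the same strand, RP11-611O2.3, at chr12:68841946-68842384. These 439 bases are all bases of MDM2, so that the reads counted for RP11-611O2.3 are reads of this stretch of the MDM2 exon whichever message they came from. In sh-NC the stretch had 154 and 157 input counts against 619 and 394 IP counts, which give ratios of 3.16 and 2.97. In shMETTL14 it had 118 and 137 input counts and 335 and 365 IP counts, ratios of 3.91 and 3.28.

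The stretch was thus 3.07-fold above its input in sh-NC (log2 1.62, SE 0.12, adjusted p = 1.435e-16) and 3.57-fold in shMETTL14 (log2 1.83, SE 0.13, adjusted p = 1.584e-17). It held 3.31% of the exon bases of MDM2 and, with its IP counts set against those of MDM2, up to 22.9% of the counts in a library. The carboxypeptidase M gene of the opposite strand, with 7535 exon bases in all, shares 133 of them with the stretch, at chr12:68842197-68842329. Its ratios over all its exons were 3.44 and 2.87 in sh-NC (log2 1.65) and 3.88 and 3.14 in shMETTL14 (log2 1.79). In sh-NC it had 131 and 149 input counts and 573 and 361 IP counts, close to those of the stretch. How many of them are reads of the stretch counted again was not tested, so its ratios are no separate measurement. The opposite-strand gene RP11-611O2.5 lies on both sides of the stretch in the same exon, at chr12:68841288-68841688 and chr12:68842854-68843237. Those 785 bases had ratios of 0.841 and 0.934 in sh-NC, against 0.866 and 1.01 in shMETTL14, neither arm called (log2 -0.17 and -0.09). Since the strand setting of the counting is not given in the sources used here, reads of MDM2, of RP11-611O2.3, of RP11-611O2.5 and of the carboxypeptidase M gene cannot be told apart in these bases, and the ratio of the stretch cannot be assigned to 1 of them. In a further run the reads of RP11-611O2.3, which cover the bases shared with the carboxypeptidase M gene, and of RP11-611O2.5 were taken away. The remainder of MDM2 had a log2 ratio of -0.23 in sh-NC (edgeR adjusted p = 0.00128) and -0.11 in shMETTL14 (adjusted p = 0.149). The stretch was picked after its high ratio was seen, so a lower remainder follows from the removal and these p-values do not test it. Taking away RP11-611O2.5 also assumes that its reads were counted for MDM2, which cannot be checked without the strand setting. Input RNA of the stretch was lower in shMETTL14 by -0.51 (SE 0.17, adjusted p = 0.0261), beside -0.50 for all of MDM2. On the few reads of the stretch that input call was lost with DESeq2 (0.114), with every gene of at least 1 read tested (0.122) and without any 1 of the 4 cultures (0.0737 to 0.219). These inner genes were named after their values had been seen.

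**Figure D4:**
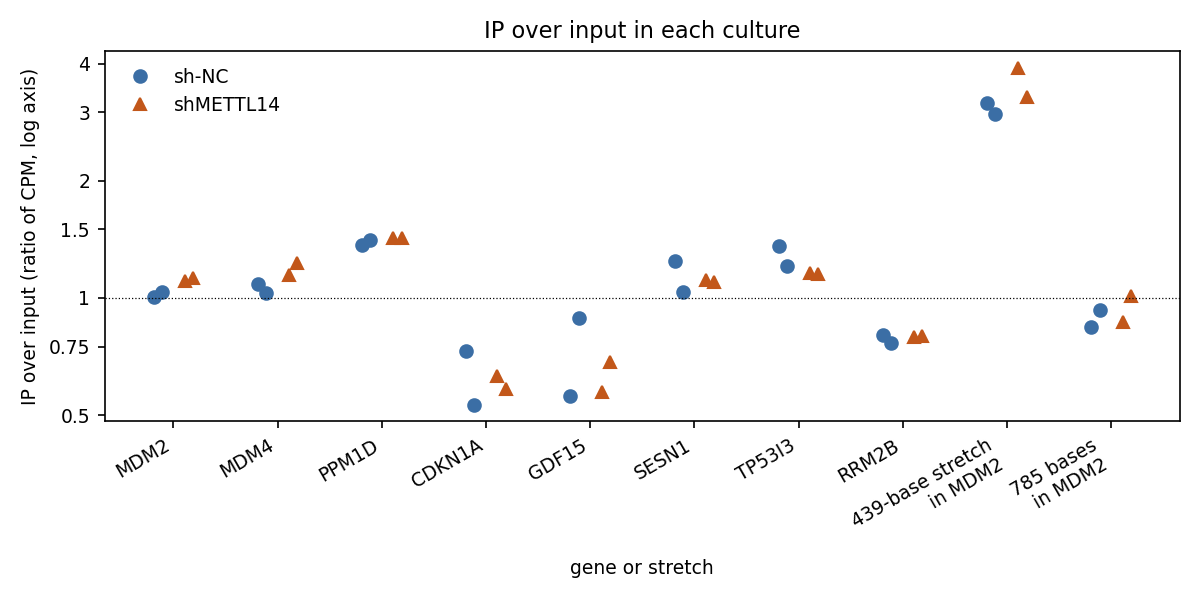
IP over input of each culture as a ratio of CPM on a log axis, for the 8 genes and for 2 parts of the last MDM2 exon, the 439-base stretch of RP11-611O2.3 and the 785 bases of RP11-611O2.5; each point is 1 culture and the dotted line marks 1. The stretch lies at 2.97 to 3.91, and the whole of MDM2 at 1.00 to 1.13.

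Among the other p53 targets, 9 of the 31 tested were above 1 and 10 below in sh-NC, and 9 above and 12 below in shMETTL14. For these and the next lists, the shares over all genes were 29.1% above and 29.8% below in sh-NC and 28.9% and 29.1% in shMETTL14, so that 9 of 31 is at the background. GADD45A, a growth arrest and DNA repair gene, was the highest in sh-NC at 2.03-fold (log2 1.02, SE 0.05), and PMAIP1, which encodes the cell death protein NOXA, followed at 0.92. PIDD1 was the lowest at -1.47 (SE 0.13). Of the 24 regulators, 8 were above and 9 below in sh-NC and 8 above and 10 below in shMETTL14, led by TOPORS, a ubiquitin and SUMO ligase, at 1.192 and 1.204. Among the paralogs 5 of 9 were above and 4 below in sh-NC, and 4 above and 3 below in shMETTL14. CDKN1B, the p27 relative of CDKN1A, was above at 0.61 in sh-NC and 0.48 in shMETTL14, and RRM2 was below at -0.54 and -0.55. TP73, which shares exon bases with TP73-AS1, was below at -0.43 in sh-NC and -0.60 in shMETTL14. Its sh-NC call was lost with DESeq2 (adjusted p = 0.0764) and without the first sh-NC culture (0.334), and its shMETTL14 call without the second shMETTL14 culture (0.167).

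The last comparison asked whether IP over input itself differed between the arms, with an interaction term over the 8 libraries. None of the 8 genes was called by edgeR, and none by DESeq2. Over all genes 0.0% were called higher and 0.00436%, 1 gene, lower, so that these 8 genes do not stand apart in having no call. Before adjustment only MDM4 fell under 0.05. Its difference was 0.17 on the log2 scale (SE 0.08, 95% interval 0.002 to 0.34, edgeR adjusted p = 0.776). TP53I3 had -0.15 (95% interval -0.31 to 0.01) and MDM2 0.13 (-0.02 to 0.28). The 439-base stretch of MDM2 had 0.22 (-0.15 to 0.58, adjusted p = 0.895).

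For PPM1D and RRM2B the differences were 0.04 (95% interval -0.18 to 0.25) and 0.02 (-0.26 to 0.31). For SESN1 the difference was -0.04 (-0.33 to 0.25) and for CDKN1A -0.05 (-0.48 to 0.38). The GDF15 interval, -1.62 to 1.398, leaves the difference undetermined at this depth. None of the 31 other targets, 24 regulators or 9 paralogs was called, and at an unadjusted p under 0.05 there were 3, 1 and 2 of them. Because each ratio is set against the other genes of its library, a loss of m6A shared by most genes would leave these values unmoved.

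In the IP libraries taken alone, which hold both RNA level and pull-down, MDM2 stood at 61.0 and 62.3 CPM in sh-NC and at 48.1 and 46.9 CPM in shMETTL14. TP53I3 stood at 38.3 and 36.1 CPM in sh-NC and at 63.8 and 65.6 CPM in shMETTL14. Both therefore moved in the IP libraries in the direction of their input RNA, and their differences there were -0.38 (adjusted p = 3.755e-07) and 0.79 (adjusted p = 5.82e-15) on the log2 scale.

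Over the 8 libraries, the genes whose log2 CPM followed that of MDM2 most closely among 16442 genes with a mean of at least 50 counts included GRM8 (r = 0.995) and CDC42EP4 (r = 0.994). For MDM4 they were DCLK2 (r = 0.996), GNAL (r = 0.968) and RCN3 (r = 0.965). For CDKN1A they were EXOSC5 (r = 0.995), RHBDF2 (r = 0.994) and UBE2J2 (r = 0.993). These are descriptions over 8 libraries that fall into 4 groups and share arms, cultures and pull-down, so that many genes reach such values.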

How the data were processed

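The authors deposited 1 table of read counts per gene for the 8 libraries (4 IP, 4 input). Reads were paired 150-base reads of a stranded library kit with molecular identifiers. Per the submitters' processing notes, Trimmomatic 0.36 and the build GRCh38 were used. The aligner, the counter, its strand setting and the use of the identifiers are not given in the sources used here. Genes wholly inside an exon of another gene on the same strand had counts, so reads were counted for more than 1 gene.

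Samples were grouped by their labels. Counts were analyzed in R 4.3.3 with edgeR 4.0.16 (filterByExpr, TMM factors, glmQLFit, glmQLFTest), with Benjamini-Hochberg adjustment over all genes tested and a threshold of 0.05. Input RNA was compared over the 4 input libraries (22245 genes), and IP over input and its change over all 8 libraries with 4 group means (22953 genes). The SE is the absolute log2 fold change over the square root of F. CPM values use the TMM factors of the 8 libraries, with a prior count of 2 for log values. Totals ran from 32027379 to 47205265 counts, and having 2 cultures per arm limits the precision, as do few reads for low genes such as GDF15. Replicate libraries differed by more than sampling noise (chi-square per gene 2.43 to 3.99). The IP and input of a culture are paired by the protocol, with correlations of their deviations of 0.004 and 5.70e-05 across 22953 genes.

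The 8 genes, the gene lists and the tests were chosen with earlier results of these data known. Named are the 8 genes, METTL14, up to 4 genes per list and direction with the largest change among those past the threshold, and the 3 genes most alike in pattern to MDM2, MDM4 and CDKN1A. Some results that this rule would name are not reported here. FAM228B, TP73-AS1 and the genes inside the MDM2 exon were added to these once their values were known. The tests were repeated with DESeq2 1.42.0, with RLE factors or none, with all genes of at least 1 read or those of at least 10 counts per library, with a replicate block, with other sets of libraries and leaving out each culture with its IP and input; taking away counts of overlapping genes was added after seeing the data. The fits were also run on counts simulated from the means and spread fitted to these data. Such a run checks that changes put in are recovered, and it does not measure how far separate cultures vary.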

Additional observations from a re-analysis of the deposited data

How the results depend on the processing

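MDM2 and TP53I3 kept their input calls under every alternative run. The number of the 8 genes higher in input RNA was 1 in place of 2 with DESeq2, with no filter beyond 1 read, and with overlapping genes taken away. The number lower was 1 in place of 2 with no filter, and 3 with at least 10 counts in every library, where GDF15 was added. The calls lost without 1 culture were those of MDM4 and SESN1 given above. Over all genes, 2607 were higher and 2732 lower in input RNA, 1082 and 1072 with no filter, and 656 to 2366 and 925 to 2590 without 1 culture. The replicate block changed no call of the 8 genes (2744 genes higher and 2849 lower in input RNA with the block); same-numbered cultures of the 2 arms share only a number (correlation -0.012).

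For IP over input in sh-NC, MDM2 turned to -0.10 and MDM4 to -0.0472 with library size only, MDM2 to -0.00052 with a minimum of 10 counts per library, and MDM2 to -0.23 with overlapping genes taken away; leaving out 1 culture gave 0 to 2 of the 8 genes lower. In shMETTL14, 1 of the 8 was above 1 with library size only in place of 4. With overlapping genes taken away, MDM2 turned to -0.11, SESN1 was called (0.26, edgeR adjusted p = 0.0295) and TP53I3 was not (0.12, adjusted p = 0.0723). That run took away every FAM228B count, although only 80 of the 4916 exon bases of FAM228B lie in TP53I3. It may therefore have taken too many counts from TP53I3. The calls lost without 1 culture were those of MDM2, MDM4 and RRM2B given above.

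For the change of IP over input, the count of all genes lower was 0 with DESeq2, 2 with RLE factors, 12 with no filter (1 higher) and 3 with at least 10 counts; without 1 culture it was 0 to 116 (0 to 9 higher), and SESN1 turned to 0.0454 with overlapping genes taken away. The IP libraries alone, which hold RNA level too, gave 2207 genes higher and 2667 lower, 1 of the 8 in each direction, and the opposite sign for MDM2 (-0.38), MDM4 (-0.0482), METTL14 (-1.70), PPM1D (-0.0935), RRM2B (-0.18), SESN1 (0.26), TP53I3 (0.79), RP11-611O2.3 (-0.30) and RP11-611O2.5 (-0.41). Apart from these, the causes of the shifts were not tested. Signs that turned without 1 culture were those of CDKN1A (input -0.17 to 0.0563, change of IP over input -0.26 to 0.17), and for the same change GDF15 (-0.47 to 0.21), PPM1D (-0.00431 to 0.0624), RRM2B (-0.0141 to 0.0438), SESN1 (-0.17 to 0.0814), TP73 (-0.36 to 0.00978), METTL14 (-0.00261 to 0.19) and RP11-611O2.5 (-0.0394 to 0.18, its log2 ratio in shMETTL14 -0.20 to 0.0186), none of them called. GDF15 had the fewest reads, with 5 to 28 counts per library, and the widest interval of the 8 genes.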
